A study of Mus musculus with 5 samples.

Results

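The regions described here are 3031 tall PABPC1 peaks that lay in a 3' UTR and held no cross-link deletion site, out of 90337 peaks in all (3.36%). The study mapped PABPC1 on RNA in MEL, a mouse erythroleukemia cell line, by CLIP-seq, in which ultraviolet light joins protein to bound RNA and the RNA that comes down with a PABPC1 antibody is read as tags. All 3 CLIP-seq samples were MEL cells given 400 mJ/cm2 of ultraviolet light, with the lysate treated with RNase for 10 min, and the study has 2 mRNA-seq samples of MEL poly(A) RNA. The authors merged the CLIP-seq samples into a single peak list and a single list of deletion sites, and gave 1 RPKM a gene (reads scaled by gene length and library size) for the mRNA-seq. Nothing here therefore carries an error between replicates, and no p-value is given. A control precipitation was not analysed here. The line is a transformed erythroid model.

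A peak was taken if its height was at least 74 tags, its midpoint lay by strand in a 3' UTR of GENCODE M21 basic (mm10), it overlapped no stop codon, and no listed deletion site lay inside it on the same strand. Of 9132 peaks of that height, 7232 had their midpoint in a 3' UTR and 1857 of those overlapped a stop codon. The remaining 5375 split into the 3031 deletion-free peaks and 2344 equally tall peaks with at least 1 deletion site, called deletion-bearing peaks here. So 43.6% of the tall 3' UTR peaks held a site, against 8.05% of all 37485 3' UTR peaks off stop codons. The members were thus chosen by peak height and by the absence of deletion sites, so both are given as a description only. They held 13.2% of the summed height of all peaks.

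PABPC1 is the main cytoplasmic poly(A) binding protein. It covers the poly(A) tail through RNA recognition motifs, helps to join the tail to the cap during translation, and gives the deadenylases access to the tail. It also contacts A-rich sequences that the genome itself encodes. When reverse transcriptase passes a base to which a remnant of the cross-linked protein is attached, it can skip that base, and the resulting deletions place a contact more finely than the tags do. A peak without a listed deletion site is therefore a place where many tags piled up but where no base passed the authors' threshold, a value the sources used here do not give.

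The sequences at the centre of the tallest deletion-free peaks show how varied these regions were. Each line gives 30 bases of a GENCODE M21 transcript (mm10), 5' to 3' on the mRNA strand in DNA letters, around the midpoint of one of the tallest peaks, 1 a gene. Capitals mark any of the 11 motifs searched.
Mtch1, chr17:29332252-29332281, minus strand: agggtggtgccttctcctgaataggaaatc
Tcf3, chr10:80409738-80409767, minus strand: ttttaaaggagAATAAAggaacattagttt
Arpc4, chr6:113389364-113389393, plus strand: actgcactggttgggaacaagggctgaatc
Dynll2, chr11:87979692-87979721, minus strand: gaaTGTTTGattttaggttttatttttctt
Lsm6, chr8:78808015-78808044, minus strand: agtttttcacATTTAtgtctcagtctttat
Ube2l3, chr16:17152091-17152120, minus strand: ttgaagtgcccgggtctcgtcctgctcttc
Atp5e, chr2:174461135-174461164, minus strand: cagatggaaatcaacctcacctcctGGGGG
Mrpl12, chr11:120488611-120488640, plus strand: agaactcacaagagattgccttgggagctt
Timm8a1, chrX:134537646-134537675, minus strand: cctggcactgtttaactgtgagctttcttt
Epb41, chr4:131925864-131925893, minus strand: aagccagcatgtgataaagaagccagcctg
Skp1a, chr11:52246421-52246450, plus strand: tagggcagcttgaagttaaccatgtgggtg

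Of these 11 windows, only that of Tcf3 carried the main poly(A) signal, AATAAA. The count of A and T ran from 12 of 30 bases in Ube2l3 to 24 of 30 in Dynll2. The 5 tallest deletion-bearing peaks are set beside them, each centred on its strongest deletion site, with the base listed as deleted in capitals.
Hnrnpa2b1, chr6:51462837-51462866, minus strand: catggtgtaataagaCataacgtttttcct
Cpsf6, chr10:117349183-117349212, minus strand: tactggttatatataTttggccattataat
Anp32b, chr4:46472616-46472645, plus strand: tttctaagactaagcAaaataaatgcatta
Tmem258, chr19:10207778-10207807, plus strand: gtgtcccacctgctgTttacaataaaggca
Yars, chr4:129219201-129219230, plus strand: gccactgtcaagttcAaataaagtgtctga

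In Anp32b, Tmem258 and Yars an AATAAA lies just downstream of the listed base. In Cpsf6, Anp32b, Tmem258 and Yars the listed base starts a run of the same base. Which base of the run was deleted was not tested. Over all deletion-bearing peaks, AATAAA lay within 20 nt of the strongest deletion site in 1010 of 2344 (43.1%), ATATAA in 237 (10.1%) and AAAAAA in 260 (11.1%). A deletion-free peak offers no such base to centre on, so the windows compared below start from the peak midpoint in both sets.

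Further deletion-free peaks carried each motif at their centre. The examples are the tallest peak with the motif within 20 nt of its midpoint, with the motif in capitals: the second poly(A) signal in Senp2, ATATAA in Rps27rt, an encoded run of A in Asxl2, a Pumilio element (TGTANATA) in Cox7c and an AU-rich heptamer in Clcn3.
Senp2, chr16:22047744-22047773, plus strand: acttttttgttcATTAAAaatcttacaggt
Rps27rt, chr9:114982383-114982412, minus strand: cacgttttggatATATAAaaaaaaaaaaaa
Asxl2, chr12:3504737-3504766, plus strand: cttgaaagagccAAAAAAaaaaaaaaaaaa
Cox7c, chr13:86044822-86044851, minus strand: ctagaaaaaatTGTAAATAaactaatgaca
Clcn3, chr8:60910478-60910507, minus strand: tgcctagagctgTATTTATctgtttttatt

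The height of the deletion-free peaks ran from 74 to 1292 tags with a median of 115 (quartiles 89.5 and 168). Deletion-bearing peaks had a median of 216 tags and reached 5762. The share of tall 3' UTR peaks without a deletion site was 74.8% at 74 to under 150 tags (2078 of 2778), 46.9% at 150 to under 300 (757 of 1615), 24.5% at 300 to under 600 (172 of 702) and 8.57% at 600 or more (24 of 280). Among deletion-bearing peaks of 74 to under 150 tags, the strongest site carried a median of 11 deletions and a minimum of 3, and was deleted in a median of 15.8% of its tags. At 600 tags or more the medians were 55.5 deletions and 9.19% of tags. At the threshold, 68 members had exactly 74 tags, among them peaks of Taf1d, Rrs1 and Cited2, and 50 peaks with 73 tags met the rest of the rule, among them those of Canx, Rab7 and Prune1. Because the kinds differ in height, the contrasts in width, nearness to an annotated end, gene abundance, AATAAA shares and the share of ATATAA were also made at 74 to under 150 tags alone, and the other contrasts were not.

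**Figure D1:**
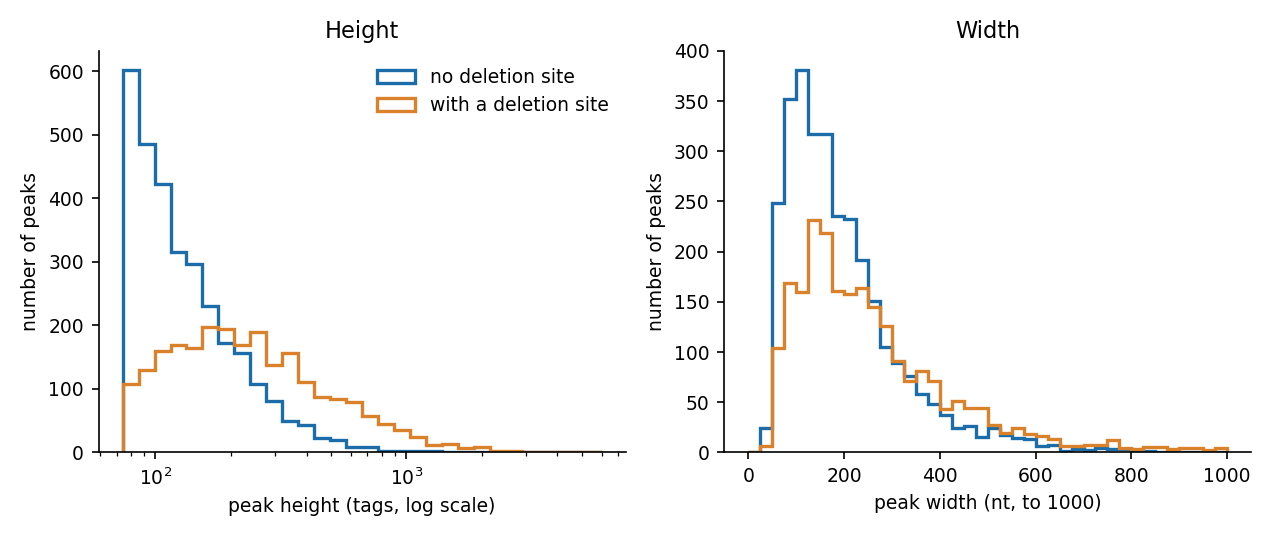
Numbers of tall 3' UTR peaks by height in tags (left, log scale) and by width in nt (right), with peaks without a deletion site in blue and peaks with one in orange. The deletion-free peaks crowd at the threshold of 74 tags and at smaller widths, with medians of 115 tags and 163 nt against 216 tags and 217 nt.

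Deletion-free peaks were narrower, which is given as a description. A wider peak has more bases in which a site can lie, so the rule itself favours narrow members. The median width of deletion-free peaks was 163 nt (95% interval 159 to 168) against 217 nt (211 to 225) for deletion-bearing peaks. At 74 to under 150 tags the medians were 154 and 186 nt, and at 300 to under 600 tags 213.5 and 245.5 nt. All intervals here cover counting error over peaks only, and peaks of 1 gene share its mRNA. Deletion-free peaks ran from 35 to 1297 nt in width and deletion-bearing peaks from 44 to 2706 nt.

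The tallest of all, at 1292 tags, lay 441 nt after the stop codon of Mtch1 (387 nt wide; chromosome 17, 29332073 to 29332459), which encodes a protein of the mitochondrial outer membrane. The peak of Tcf3, the E2A transcription factor, reached 1280 tags, and that of Arpc4, a subunit of the Arp2/3 actin nucleator, 1238. Dynll2, a dynein light chain gene, had 1150, Lsm6 of the LSm rings that bind U6 RNA and act in decapping had 1145, and Ube2l3, a ubiquitin-conjugating enzyme, had 1038. Mitochondrial proteins followed: Atp5e of the ATP synthase at 910, Mrpl12 of the mitochondrial ribosome at 897 and the import factor Timm8a1 at 835. Epb41, protein 4.1 of the red cell membrane skeleton, had 822, the mitochondrial chaperone Hspa9 806 and Skp1a of the SCF ubiquitin ligases 768. Each of these 12 peaks but that of Hspa9 was the tallest of its gene, where Hspa9 had another of 1610 tags.

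Most deletion-free peaks lay on genes without any deletion site in an exon. This was so for 1941 of 3031 (64.0%), on 1701 genes, among them Mtch1, Tcf3, Lsm6, Atp5e and Mrpl12. The rule partly fixes this share, since it leaves no site inside a deletion-free peak. Such genes held 2 of 2344 deletion-bearing peaks, a share the rule keeps low, so the values are a description only. A site elsewhere on the same transcript was present for 1054 deletion-free peaks (34.8%), at a median of 651 nt from the midpoint (quartiles 316 and 1284). It lay upstream of the peak for 634 and downstream for 420. Only 35 deletion-free peaks had a site within 50 nt outside their edges. A site on the opposite strand overlapped 11.

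The distance to the annotated end did not separate the kinds in a stable way. The midpoints of deletion-free peaks lay a median of 772 nt after the stop codon and 146 nt (95% interval 133 to 159) before the next annotated end, and those of deletion-bearing peaks 773.5 nt and 159 nt (150 to 172). Both kinds gathered near ends: 39.3% of deletion-free and 33.2% of deletion-bearing peaks had their midpoint within 100 nt of one, against 13.7% and 13.6% of all positions in the same 3' UTRs. The difference was 6.03 percentage points (3.44 to 8.59) by midpoint. It moved with width: by the 3' edge of the peak, which reached within 50 nt of the end or past it in 55.3% of deletion-free and 62.4% of deletion-bearing peaks, the difference was -7.15 points (-9.78 to -4.50). Among peaks 100 to under 200 nt wide the midpoint share was 55.5% of 1250 against 60.6% of 771, a difference of -5.05 points (-9.43 to -0.614). Both of these alternatives were chosen after seeing the data. Fewer deletion-free peaks ran past the annotated end of the transcript, 810 (26.7%) against 793 (33.8%), by a median of 4 nt in both kinds.

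**Figure D2:**
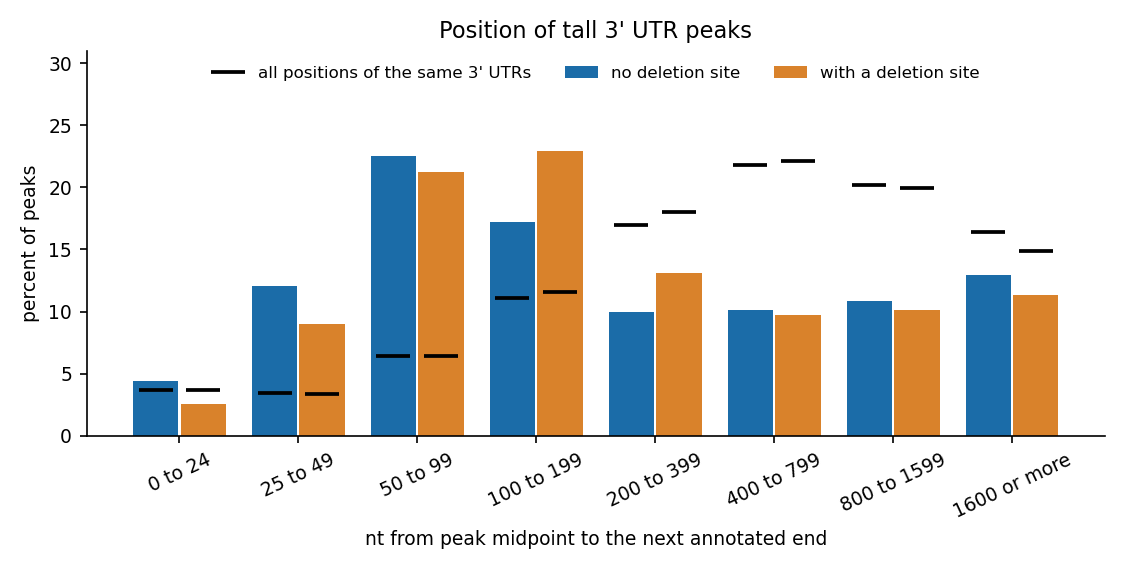
Percent of tall 3' UTR peaks by the distance in nt along the spliced 3' UTR from the midpoint to the next annotated transcript end, without a deletion site in blue and with one in orange. Black marks show all positions of the same 3' UTRs, each weighted by its peaks, and both kinds stand above them from 25 to under 200 nt and below them from 200 nt on.

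Far from ends, 330 deletion-free peaks lay 800 to under 1600 nt before the next end and 393 farther still. The peak of Lsm6 was 182 nt after the stop codon and 1578 nt before the next end, that of Epb41 62 nt after the stop and 2449 nt before it, and that of Asxl2, a chromatin protein gene, 7725 nt after the stop and 2111 nt before it. Those near an end included the peaks of Cox7c, a cytochrome oxidase subunit (752 tags, midpoint 1 nt before the end and running 29 nt past it), of the proteasome subunit gene Psmb7 (226 tags, 26 nt) and of Eif2s2, the beta subunit of initiation factor 2 (504 tags, 33 nt).

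In base composition the kinds were nearly alike, and both were richer in A and T than their own 3' UTRs. Within 20 nt of the midpoint, A made up 29.4% ± 10.6 (SD over 3031 peaks) and T 32.5% ± 9.78 of deletion-free windows, against 29.1% ± 10.9 and 32.5% ± 9.85 in deletion-bearing windows. Over all windows of the same 3' UTRs the A share was 26.3% in both sets and T 29.8% and 29.9%. C stood at 19.3% and 19.2%, and G at 18.8% and 19.3%. The lowest sum of A and T was 19.5% and the highest 90.2% among deletion-free peaks. The Cox7c window, at 81.5%, and that of Myc, at 82.9%, stood near the top, and the window of the ribosomal protein gene Rps9, at 29.3%, near the bottom. Windows stop at the annotated transcript end, and that of Cox7c was cut short by it.

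The motif with the largest relative difference among the 11 was ATATAA. The peaks were split by deletion sites, where this hexamer is concentrated (given below), so its contrasts are a description only. ATATAA lay within 20 nt of the midpoint of 51 of 3031 deletion-free peaks, 1.68% (95% Wilson interval 1.28 to 2.21), and of 87 of 2344 deletion-bearing peaks, 3.71%. The difference was -2.03 percentage points (Newcombe interval -2.96 to -1.16). In all windows of the same 3' UTRs the share was 1.26% and 1.41%, so deletion-free peaks held 1.33 times and deletion-bearing peaks 2.64 times the share of their own 3' UTRs. The order was the same at 74 to under 150 tags (1.68% against 3.86%), at 150 to under 300 (1.98% against 4.31%), at 300 to under 600 (0.581% against 2.45%) and among peaks 100 to under 200 nt wide (2.00% against 4.15%). It was also the same in the 521 genes that held both kinds, with 7 of 668 deletion-free and 25 of 630 deletion-bearing peaks (difference -2.92, -4.82 to -1.24). The counts behind single height classes are small, 35 and 27 windows at 74 to under 150 tags and 1 and 13 at 300 to under 600.

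Counted per length over whole peaks, ATATAA started 0.480 times per kb in deletion-free peaks (282 starts) and 0.801 times per kb in deletion-bearing peaks (490 starts). The whole 3' UTRs that held these peaks had 0.382 and 0.410 per kb. Within deletion-bearing peaks the hexamer was concentrated at the sites: 2.38 per kb within 20 nt of a deletion site and 0.408 per kb farther away. The 0.480 of deletion-free peaks lay between those values, nearer to the second. That second value leaves out 290 of the 490 starts, so it is not a like comparison for whole deletion-free peaks. The tallest deletion-free peak with ATATAA at its centre was that of Rps27rt, a retrotransposed copy of Rps27, at 335 tags, which are uncertain since the copies can share tags, and its ATATAA runs into an encoded stretch of A.

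AATAAA, the main poly(A) signal, was frequent in both kinds. Like ATATAA, it was concentrated at the deletion sites that split the peaks (given below), so its contrasts are a description only. It lay within 20 nt of the midpoint in 387 deletion-free peaks, 12.8% (11.6 to 14.0), and in 249 deletion-bearing peaks, 10.6% (9.44 to 11.9), against 5.08% and 5.35% of windows in the same 3' UTRs. The difference was 2.15 points (0.406 to 3.86), and 2.66 (-0.208 to 5.25) at 74 to under 150 tags. It moved with width, as the distance to the end did. Over whole peaks 56.5% of deletion-free and 68.9% of deletion-bearing peaks held it (difference -12.4, -14.9 to -9.80), and at widths of 100 to under 200 nt 55.3% and 66.0%. At those widths the midpoint windows held it in 7.44% and 8.30% (difference -0.861, with an interval that held 0), and in genes with both kinds in 8.68% and 11.1% (-2.43, -5.73 to 0.827). Per kb, AATAAA started 3.54 times in deletion-free peaks and 3.35 times in deletion-bearing ones, against 1.07 and 1.14 over the whole 3' UTRs. Within deletion-bearing peaks it stood at 10.7 per kb within 20 nt of a site and at 1.52 farther away. The stretches away from sites leave out 1302 of the 2046 AATAAA starts of deletion-bearing peaks. Their 1.52 per kb is therefore not a like comparison for whole deletion-free peaks.

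The second poly(A) signal, ATTAAA, lay near 5.05% of deletion-free and 3.84% of deletion-bearing midpoints (difference 1.21, 0.0867 to 2.30), against 2.45% and 2.42% in the same 3' UTRs. Over whole peaks 22.3% and 23.6% held ATTAAA (difference -1.30, -3.58 to 0.962). Its midpoint shares were not matched for width. One or the other signal was present within 20 nt in 17.2% and 14.2%, and somewhere in the peak in 69.4% and 79.7%. Near annotated ends, within 100 nt, AATAAA lay at 20.8% of 1190 deletion-free and 16.9% of 779 deletion-bearing midpoints, and farther away at 7.60% of 1841 and 7.48% of 1565. Both kinds had the signal mostly on the 3' side. In deletion-free peaks it started 20 to 39 nt downstream of the midpoint in 12.0% and in the mirrored stretch, 40 to 21 nt upstream, in 1.91%.

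**Figure D3:**
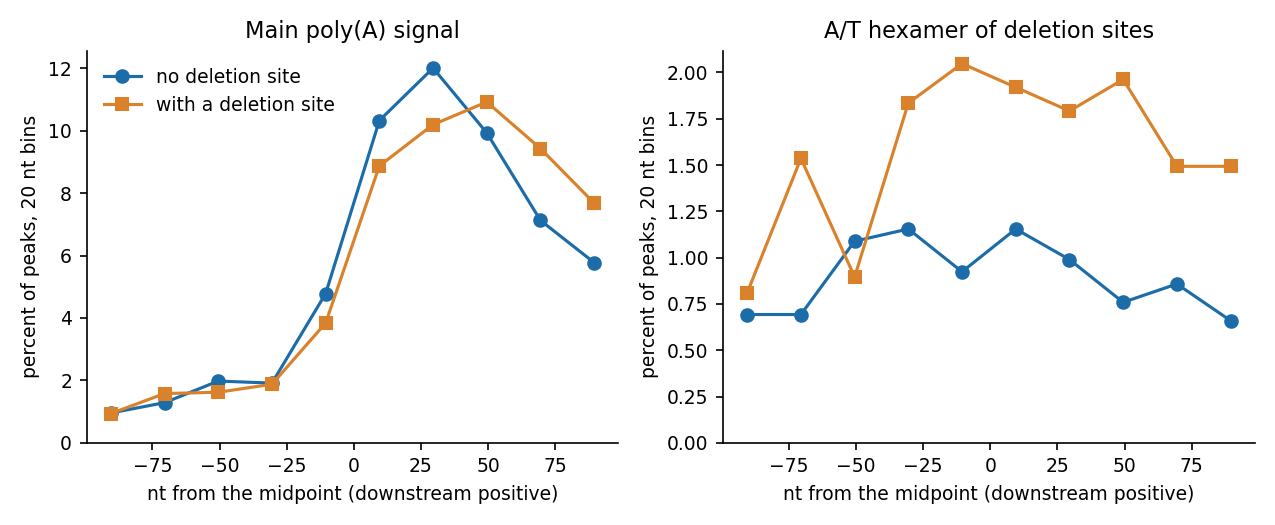
Percent of tall 3' UTR peaks in which a motif starts in each bin of 20 nt from 100 nt upstream to 99 nt downstream of the midpoint, without a deletion site in blue and with one in orange. AATAAA (left) tops out at 12.0% of deletion-free peaks 20 to 39 nt downstream and at 10.9% of deletion-bearing peaks 40 to 59 nt downstream, while ATATAA (right) lies at 0.660% to 1.15% of deletion-free and 0.811% to 2.05% of deletion-bearing peaks.

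Encoded runs of A, of the same sequence as the tail, stood near 5.31% (4.57 to 6.17) of deletion-free and 5.84% (4.97 to 6.87) of deletion-bearing midpoints for AAAAAA, with a difference of -0.533 points (-1.80 to 0.695). Their own 3' UTRs had 2.71% and 2.84%. Over whole peaks AAAAAA started 4.51 and 5.12 times per kb, and within deletion-bearing peaks 12.6 times per kb near a site and 3.26 times farther away. AAAAAA was thus also concentrated at the sites that split the peaks, and its contrasts are a description only. The peak of Asxl2, at 591 tags, was the tallest deletion-free peak with AAAAAA at its centre. Ccna2, the cyclin A2 gene, and the desaturase gene Scd1 had such peaks of 188 and 261 tags.

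Of the AU-rich elements, which recruit proteins that shorten mRNA life, ATTTA lay near 8.55% of deletion-free and 10.5% of deletion-bearing midpoints (difference -1.91 points, -3.52 to -0.333), against 6.10% and 6.38% in the same 3' UTRs. Within deletion-bearing peaks ATTTA started 4.38 times per kb within 20 nt of a site and 2.15 times farther away. The peaks were split by these sites, so its contrasts are a description only. Whole deletion-free peaks had 2.28 starts per kb and whole deletion-bearing peaks 2.60. The heptamer TATTTAT lay near 1.35% and 1.54%. The Pumilio element TGTANATA, the site of a family of repressors that recruit deadenylases, was at 2.44% and 2.30%, against 0.966% and 1.01%, so both kinds held more than 2 times the share of their own 3' UTRs. TTTTTT (4.55% and 4.99%), GTTTGT (2.34% and 2.43%) and TGTTTG (2.97% and 3.16%) stood close to their own 3' UTRs in the deletion-free peaks, at 1.06, 1.14 and 1.15 times. GGGGG was scarce in both, at 1.22% and 1.15%, or 0.456 and 0.454 times the same 3' UTRs. In the plot of motif shares, G/T hexamer 1 is GTTTGT and G/T hexamer 2 is TGTTTG. None of the 11 motifs was present within 20 nt of 1910 deletion-free midpoints (63.0%) and of 62.3% of deletion-bearing ones. Motifs were searched on the mRNA strand, ATTTA lies within TATTTAT, and TGTANATA can overlap AATAAA, as in Cox7c.

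**Figure D4:**
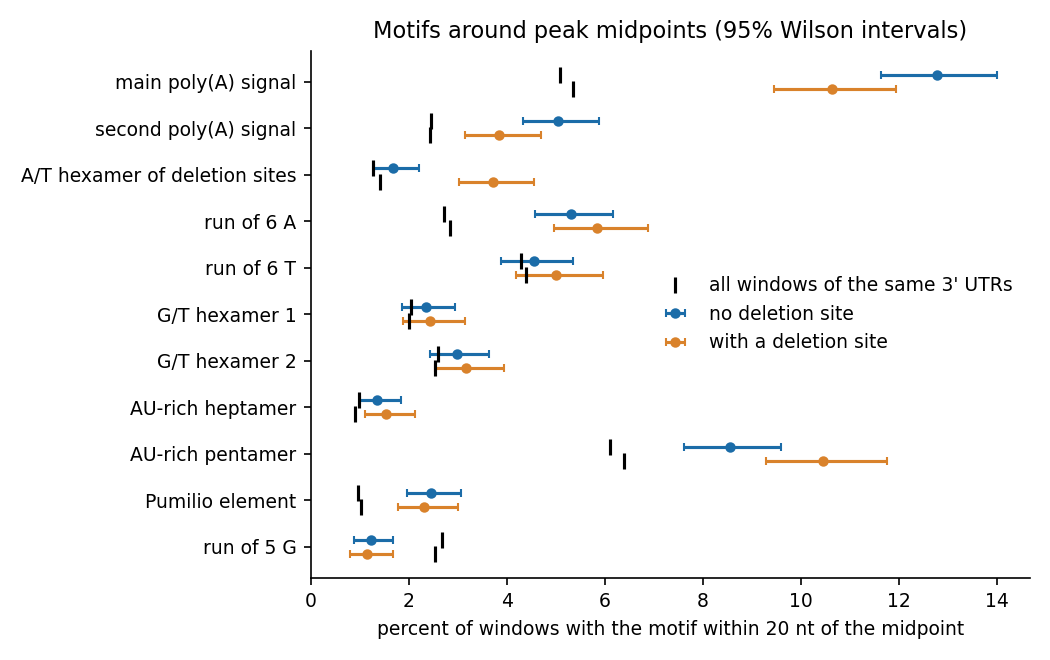
Percent of windows of 20 nt either side of the midpoint that hold each motif, with 95% Wilson intervals, for 3031 peaks without a deletion site (blue) and 2344 with one (orange), and for all windows of the same 3' UTRs (black marks). The main poly(A) signal in the top row is AATAAA and the second poly(A) signal is ATTAAA, and the blue and orange intervals lie apart for the A/T hexamer of deletion sites, which is ATATAA, at 1.68% and 3.71%.

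Ranking all hexamers, also a description of peaks split by deletion sites, gave ATATAA the lowest ratio of deletion-free to deletion-bearing windows. Of 464 hexamers in at least 50 windows of either kind, 412 (88.8%) had a log2 ratio between -0.5 and 0.5. ATATAA was lowest at -1.14, followed by TCACTG at -0.87, GAAAAT at -0.77 and TGTTAA at -0.69. The highest were GCTGTA at 1.21 (54 and 18 windows), ATTATA at 1.13 (85 and 30) and CTATAA at 1.05 (59 and 22), followed by TCTCCC at 0.98 (56 and 22) and ACATAA at 0.97 (71 and 28). Hexamers made mostly of A and T thus stood at both ends of the ranking. The hexamer in most deletion-free windows was AATAAA with 387, followed by AAATAA with 252, at a log2 ratio of 0.04. The interval of the difference left out 0 for 43 of the 464, and no correction was made for their number.

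The genes behind the deletion-free peaks were of lower abundance. The 3031 peaks lay on 2564 genes, of which 2549 had an RPKM, with a median of 26.3 (95% interval 25.5 to 27.6). Genes with a deletion-bearing peak had a median of 38.9 (36.9 to 41.5), genes with both kinds 41.6, and all 18349 listed genes 6.62. At 74 to under 150 tags the medians were 24.4 and 27.1, at 150 to under 300 tags 31.2 and 36.6, at 300 to under 600 tags 42.1 and 55.7, and at 600 tags or more 88.4 and 98.1, lower for deletion-free peaks in each class. The last class held only 24 deletion-free and 256 deletion-bearing peaks. These class medians are given without intervals, and heights within a class were not matched. Over the 3016 deletion-free peaks with an RPKM, Spearman's rho between height and abundance was 0.190, and over deletion-bearing peaks 0.365. The points share the pooled libraries, and the least height cuts the range. Atp5e (RPKM 129) and Ube2l3 (RPKM 28.7) show the spread, with 910 and 1038 tags.

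A single deletion-free peak was found on 2170 genes, 2 on 327, 3 on 61 and 4 on 6. The genes with 4 were Son, a splicing cofactor of nuclear speckles, Lars2, the mitochondrial leucyl-tRNA synthetase, the cyclin gene Ccnd2, the deubiquitinase gene Otud7b, the hyaluronan receptor gene Cd44 and the RNA helicase gene Ddx3x. In Ccnd2, whose 3' UTR is 5173 nt long, the peaks stood 1577, 1951, 3560 and 4297 nt after the stop codon with heights of 87, 240, 131 and 104 tags. The window of the tallest held no A at all and 48.8% T. All 25 deletion sites of Ccnd2 lay elsewhere, the nearest 521 nt from a midpoint.

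Cd44 had peaks of 83, 140, 92 and 180 tags at 741, 1030, 1503 and 2464 nt, and its single deletion site lay 209 nt from the last of them. In Otud7b they were 78, 231, 112 and 125 tags at 434, 2611, 4684 and 5122 nt, the last with AATAAA at its centre, 39 nt before the end. Ddx3x had 139, 83, 75 and 121 tags at 1637, 1927, 2042 and 2492 nt, all downstream of a deletion-bearing peak of 425 tags, with another of 108 tags among them. Lars2 had 336, 87, 100 and 112 tags within a 3' UTR of 986 nt and no deletion site in any exon, at an RPKM of 1543. That was the highest RPKM among genes with a deletion-free peak and no deletion-bearing peak. Whether inexact copies elsewhere share tags or reads with Lars2 was not tested. The 4 peaks of Son, up to 409 tags, did not all lie on the same transcript, though those of 148 and 99 tags shared a 3' UTR. On Ddx3x and Otud7b tall peaks with a site lay between deletion-free ones on the same mRNA.

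**Figure D5:**
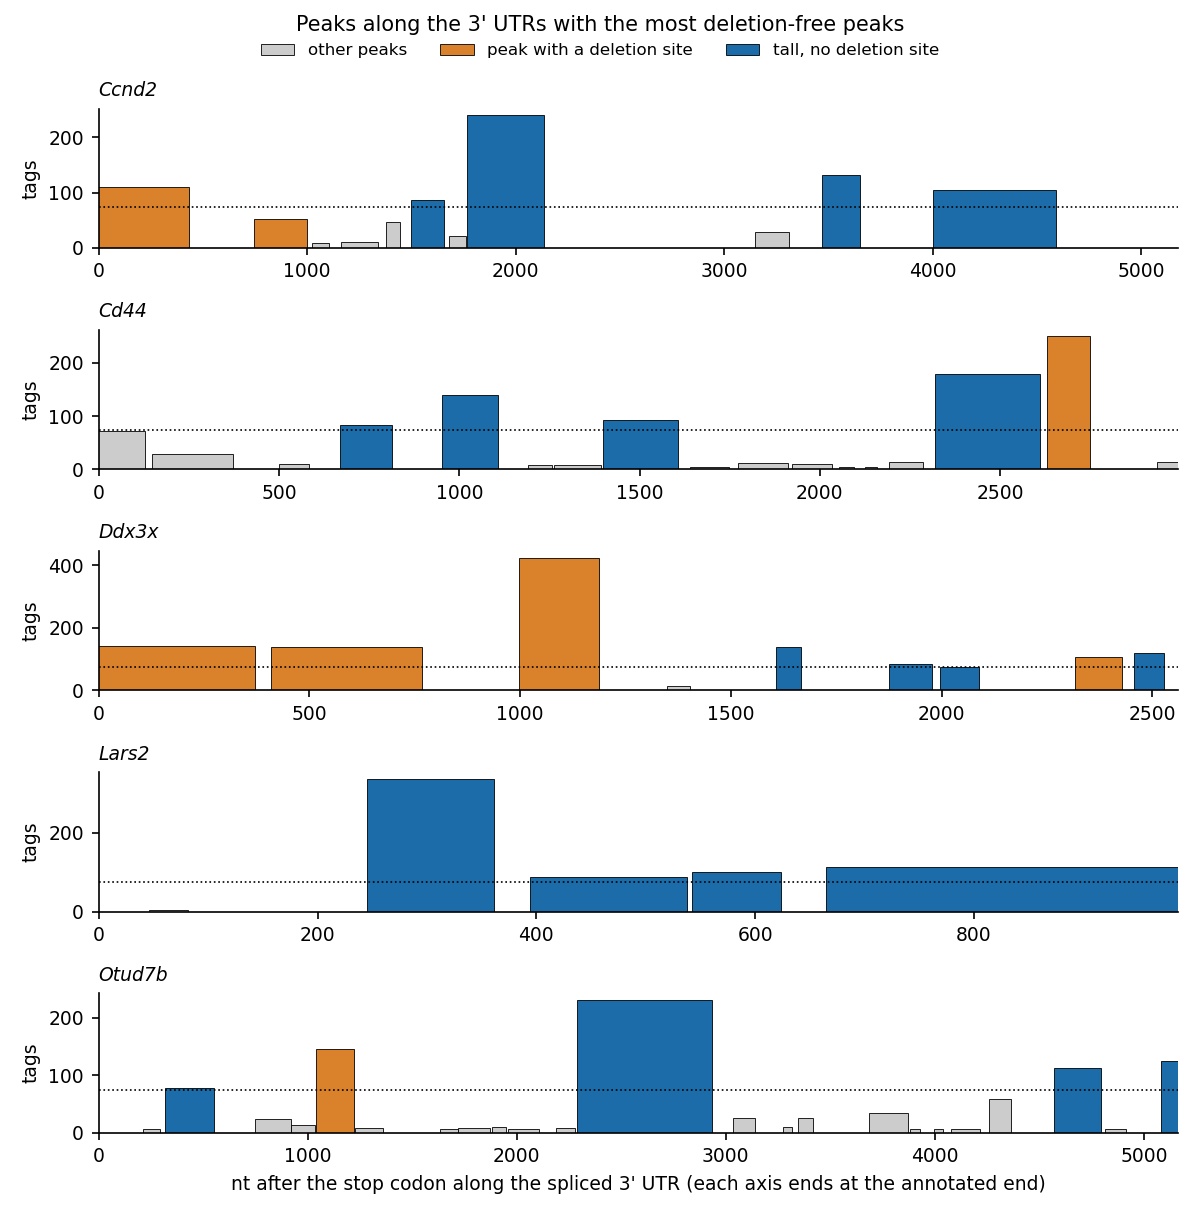
Peaks along the spliced 3' UTR of the genes with the most deletion-free peaks, as nt after the stop codon against height in tags, with tall deletion-free peaks in blue, peaks with a deletion site in orange and other peaks in grey. Each bar is as wide as its peak, and the dotted line is the least height of 74 tags. Son is left out because its peaks do not all lie on the same transcript. Lars2, with peaks of 336, 87, 100 and 112 tags, has none in orange.

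In genes that held both kinds, the deletion-free peak was more often the upstream one. Of 834 pairs in 521 genes, it lay upstream in 473, 56.7% (95% interval 53.3 to 60.0), and with the tallest peak of each kind a gene in 307 of 521, 58.9% (54.7 to 63.1). It was the taller of the pair in 200 (24.0%). Over all genes, 64.7% of deletion-free peaks were the tallest peak of their gene, against 76.5% of deletion-bearing peaks. The rule uses height, and the share without a site falls with it, so these height values are a description only. The pairs were not matched for height.

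Gene groups were compared by the share of their tall 3' UTR peaks that held no site. Over all genes it was 56.4%, at a median height of 145 tags. That share falls with height, as given above, and the lists were not matched for height. Endoplasmic reticulum chaperone genes had 2 of 13 without a site (15.4%, 95% interval 4.33 to 42.2) at a median height of 323 tags. The 2 were Dnajb11 (133 tags) and Txndc5 (123 tags). Glycolysis and one-carbon genes had 6 of 17 (35.3%, 17.3 to 58.7; median 421 tags), led by the enolase gene Eno1 at 421 tags and the phosphofructokinase gene Pfkl at 315. Enolase has processed pseudogenes, which can share its tags. Of the 16 lists, only the endoplasmic reticulum chaperones and the hnRNP and SR proteins had intervals that ended below 56.4%. Both lists had taller peaks than all genes, with a median of 227.5 tags for the hnRNP and SR proteins. The part of height in these shares was not tested.

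Genes of the translation machinery had between 40.0% and 43.6%. Cytosolic ribosomal protein genes had 10 of 25 (23.4 to 59.3), with Rps9 at 480 tags and Rpl23 at 254. Translation factors had 17 of 39 (29.3 to 59.0) at a median height of 267 tags. The peak of Eif5a, which relieves stalled ribosomes and had the most tags of them, reached 659 at RPKM 949. Genes of hnRNP and SR proteins, which bind pre-mRNA in splicing, had 20 of 48 (41.7%, 28.8 to 55.7), with the splicing repressor Ptbp1 at 342 tags and Srsf9 at 323. Actin and actin assembly genes had 14 of 33 (42.4%), with Arpc4 and its relative Arpc5l (277 tags).

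Genes for binding, shortening and degrading poly(A) mRNA stood near the share of all genes, with 34 of 59 (57.6%, 44.9 to 69.4). The tallest were on Cnot2, a subunit of the CCR4-NOT deadenylase, at 516 tags and on Larp4b, which binds PABPC1, at 441 tags. Both genes had no deletion site in any exon. Pabpc1 itself was not among them: its 1 tall 3' UTR peak, of 762 tags and with an AAAAAA at its centre, held 3 deletion sites. Sterol and fatty acid genes had 14 of 25 (56.0%), with the elongase gene Elovl5 at 354 tags, and immediate-early and AU-rich mRNAs 12 of 21 (57.1%), with the survival gene Mcl1 at 187 and Myc at 175.

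Erythroid genes had 21 of 40 (52.5%, 37.5 to 67.1). Epb41 led them at 822 tags, followed by the glycophorin C gene Gypc at 252. Cell cycle and replication genes had 19 of 39 (48.7%) and cytosolic chaperones 8 of 16 (28.0 to 72.0), with Hspa4 at 435 tags and Dnajb1 at 275. Respiratory chain genes had 10 of 16 (62.5%, 38.6 to 81.5; median 110.5 tags), led by Atp5e and Cox7c, and proteasome genes 7 of 10 (70.0%, 39.7 to 89.2), led by Psmd2 at 243 tags and Psmb7 at 226. These counts are small, and no list was tested.

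The labelled cell type was checked on mRNA markers. All 7 erythroid markers had an RPKM of at least 1, with Klf1 at 428 and Gata1 at 211. Of 8 fibroblast markers 5 were not listed, Col1a1 stood at 0.873, and Vim (541) and Thy1 (65.3) were high. Thy1 was the only fibroblast marker with a deletion-free peak, of 247 tags. Of 6 markers of other blood cells Ptprc (11.8) and Pf4 (216) had at least 1, and none had a deletion-free peak. The part of other cells in the results was not tested.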

How the data were processed

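The authors deposited 1 pooled peak list whose whole-number score was read as peak height in tags, since it was at least the tag coverage at 99.8% of the 10137 deletion sites that lay in peaks. They deposited 1 pooled list of deletion sites with the count of deleted tags and of covering tags, and 1 deposited RPKM a gene. Build mm10 and the tools HTSeq 0.6.0, TopHat2 2.0.12, Novoalign 3.02.02 and cutadapt 1.4.2 are listed, with no role, in the submitters' processing notes. The sources used here do not give the thresholds of either list. From these lists, peaks were placed by midpoint on GENCODE M21 basic transcripts, using the transcript with the longest 3' UTR, and distances run to the next annotated end of the gene. Backgrounds are every position of the same 3' UTRs, weighted by peaks. Of the listed genes, 98.4% were found in the annotation.

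Shares carry Wilson, their differences Newcombe and medians order-statistic 95% intervals, which cover counting error over peaks (Python 3.11.15, scipy 1.17.1). The code was tested on simulated data. Alternatives were other heights, widths, windows, deletion rules and 1 peak a gene. The members and the 16 gene lists were chosen with earlier results of these data known. Genes named are the tallest of all peaks, in each list and with each motif, the genes with the most members, those at the threshold, the tallest on genes without sites, the tallest deletion-bearing peaks and Pabpc1. Other named windows and hexamers were chosen after their values were seen.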

Additional observations from a re-analysis of the deposited data

How the results depend on the processing

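Of 83 alternative values, 61 stayed close to the reported one: counts of peaks within 1.5 times of it, and other values within its interval or spread. A further 18 moved beyond that, and 4 changed sign. For base composition the spread was the SD over peaks, which is wide beside any shift of a mean. Some settings changed few peaks, such as 3019 members with the midpoint in a 3' UTR of every transcript. The 61 is therefore a lenient count. The ATATAA difference was negative in every setting run, at -3.62 points with windows of 50 nt and -9.63 over whole peaks. All these settings split the peaks by deletion sites. The alternatives by width and by 3' edge were chosen after seeing the data. The AATAAA difference was 4.73 points with windows of 50 nt, 0.222 for peaks wholly in 3' UTR exons, -0.861 at widths of 100 to under 200 nt and -12.4 over whole peaks. The difference within 100 nt of an annotated end was 3.33 points at 150 tags or more, 2.32 at 30 or more, -5.05 at widths of 100 to under 200 nt and -7.15 by the 3' edge. With at least 150 tags there were 953 members (36.7%, median width 189 nt), and with at least 30 tags 7669 (73.1%, 139 nt). At 74 to under 150 tags the share was 74.8%, the width 154 nt and the median RPKM of their genes 24.4. Counting only sites with at least 10 deletions gave 65.3% and 169 nt, and peaks wholly in 3' UTR exons gave 59.0%. The cause of these shifts was not tested. No paired analysis was possible because the authors pooled the samples of each kind, and no sample could be left out. Depth per sample is unknown from the pooled lists, and the part of depth in which peaks lack a listed site was not tested.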

Other observations

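Few of these regions had an exact copy in the transcripts of a gene elsewhere. Of 2999 deletion-free peaks with a full 41 nt window, 3 had that window in a transcript of another gene at another place (95% interval 0.0340% to 0.294%), and of 2336 deletion-bearing peaks 4 (0.171%, 0.0666 to 0.439). They were a pair of peaks of Wdr89, the taller with 482 tags, whose sequence is also in Rplp2, and that of Phospho1 at 257 tags, also in Zfp652. They were named after their values were seen, and neither inexact copies nor genome sequence outside transcripts were searched.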
